A study of Mus musculus with 8 samples.

Results

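Trp53, the gene of the transcription factor p53, and 9 genes that p53 is known to switch on were followed in mouse cells at day 6 of neural induction, with and without a knockdown of Zrf1. The 9 are Mdm2, Pmaip1, Bbc3, Bax, Perp, Phlda3, Btg2, Ccng1 and Sesn1. They were chosen by name from the gene symbols of the array, where each of the 10 genes has 1 probe, out of 36367 gene names on 55681 probes. All 10 probes were well above background on all 8 arrays, so none was lost to the filter on dim probes.

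The study grew embryonic stem cells into neural progenitors, labelled RGC-like NPC, after the neural induction protocol of Bibel and colleagues. The groups compared were 4 control arrays, from cells with the control hairpin shCtrl, and 4 knockdown arrays, from cells with the hairpin shZrf1, all harvested at day 6. Zrf1 is the chaperone and chromatin protein now named Dnajc2. From each sample 100 ng of total RNA was amplified from an oligo-dT primer, labelled with Cy3 and hybridised alone to an Agilent mouse array. The labels do not say whether the 4 replicates of a group were separate cultures, nor how many hairpins or clones were used, so the p values measure only the spread between these samples, which may be technical.

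p53 is held low in unstressed cells by Mdm2, a ubiquitin ligase that marks it for breakdown and whose own gene is a p53 target, which closes a feedback loop. Stress frees p53, mostly by changing the protein rather than its mRNA, and it then switches on genes for cell death, growth arrest, repair and metabolic control. In stem cells and neural progenitors it is known for limiting the survival of damaged cells.

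Signals are given as log2 values after subtraction of the array's own 75th percentile, which is therefore 0, and changes are knockdown minus control. A change was called when limma's adjusted p (Benjamini-Hochberg over all 29090 tested probes) was under 0.05. On each array between 53.4% and 60.3% of 59305 spots were well above background. Dnajc2 itself went from 1.88 ± 0.11 (SD, n = 4) to -2.319 ± 0.235 (SD, n = 4), a change of -4.19 (SE 0.12), 18.3-fold lower (limma adjusted p = 1.47e-07). The 9 marker genes of radial glia-like progenitors were above background on all 4 control arrays, and in knockdown arrays 8 of them were called lower. Pax6 was not called by its brightest probe, while the other of its 2 probes was called higher, and Fabp7, a lipid carrier of radial glia, stayed not well above background in all 4 knockdown arrays. The log2 of the summed signal of that list ran from 6.90 to 7.02 in control and from 5.01 to 5.09 in knockdown arrays. All 7 endoderm markers were called higher, including the fetal plasma protein Afp, which stayed not well above background in all 4 control arrays, and their sum went from between 1.11 and 1.38 to between 3.30 and 3.41. Of 5 pluripotency markers 3 were lower and 1 higher, and of 5 neuronal markers 3 were lower and 1, Stmn2, higher. Of 4 tested fibroblast markers 2 were higher, and of 3 tested blood markers 2 were higher and 1 lower. Over all genes tested by their brightest probe 29% were called higher and 28.5% lower, so such counts in short lists say little. The pluripotency sum fell and the fibroblast sum rose, while the blood sums overlapped. The neuronal sum rose, from between 2.88 and 3.15 to between 3.28 and 3.41, with Stmn2 4.75-fold higher. The part of these shifts in the results for the p53 genes was not tested. In RNA from whole cultures, fewer cells of a type and less RNA per cell cannot be told apart.

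p53 binds DNA as a tetramer through pairs of a half-site of 10 bases, and the sequences just before the transcript starts show where such letters stand in these genes. RefSeq promoters (GRCm38.p6) were at hand for 8 of the 10 genes, in 11 windows, with none for Pmaip1 and Perp. The 250 bases before each start were searched for the p53 half-site consensus, which reads the same on both strands. At least 1 exact half-site stood in the window of 5 genes, and the same held for 8.20% of 27025 genes with a window. The 5 stretches below, and that of Cdkn1a, the classical p53 target that encodes the arrest protein p21, are printed 5′ to 3′ along the transcript, with exact half-sites in capitals.
Trp53 (chr11:69580239-69580338, + strand): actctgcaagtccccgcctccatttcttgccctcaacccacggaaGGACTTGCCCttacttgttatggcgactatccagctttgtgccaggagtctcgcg
Mdm2 (chr10:117710890-117710989, - strand): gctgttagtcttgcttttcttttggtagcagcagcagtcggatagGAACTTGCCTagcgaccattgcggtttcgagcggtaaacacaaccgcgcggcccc
Bax (chr7:45467045-45467144, - strand): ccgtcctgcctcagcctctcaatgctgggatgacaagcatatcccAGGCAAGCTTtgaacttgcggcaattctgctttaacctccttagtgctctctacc
Ccng1 (chr11:40755417-40755516, - strand): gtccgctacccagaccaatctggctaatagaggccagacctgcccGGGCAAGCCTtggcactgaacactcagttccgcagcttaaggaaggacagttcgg
Sesn1 (chr10:41887221-41887320, + strand): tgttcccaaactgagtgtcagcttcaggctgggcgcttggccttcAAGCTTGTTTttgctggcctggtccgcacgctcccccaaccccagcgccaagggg
Cdkn1a (chr17:29090861-29090978, + strand): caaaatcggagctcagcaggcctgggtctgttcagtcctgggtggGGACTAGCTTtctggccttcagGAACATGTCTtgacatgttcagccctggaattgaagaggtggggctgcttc

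The half-site of Trp53 began at position -75 from the start, that of Mdm2 at -186, that of Bax at -201, that of Ccng1 at -185 and that of Sesn1 at -173. When pairs of half-sites with up to 13 bases between them were scored, the best pairs of Ccng1 and Bax had 1 mismatch each. Those of Sesn1, Trp53 and Mdm2 had 2, 3 and 4 mismatches. Without an exact half-site, Bbc3 had 3 and Phlda3 and Btg2 had 4. A pair with 1 mismatch or fewer was found in 0.90% of all 32851 windows. The Cdkn1a stretch held 2 exact half-sites, at -73 and -51, with 12 bases between them. The bases directly after the second, left in lower case, match the half-site consensus with 1 mismatch. A pair of exact half-sites was found in 0.064% of windows. For Sesn1 and Cdkn1a these positions refer to a single start, and the window before another start of each held no exact half-site. No exact half-site was in the windows of Bbc3, Phlda3 and Btg2. A match is a run of letters and not evidence of binding, and sites within genes or farther upstream lie outside these windows.

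**Figure D1:**
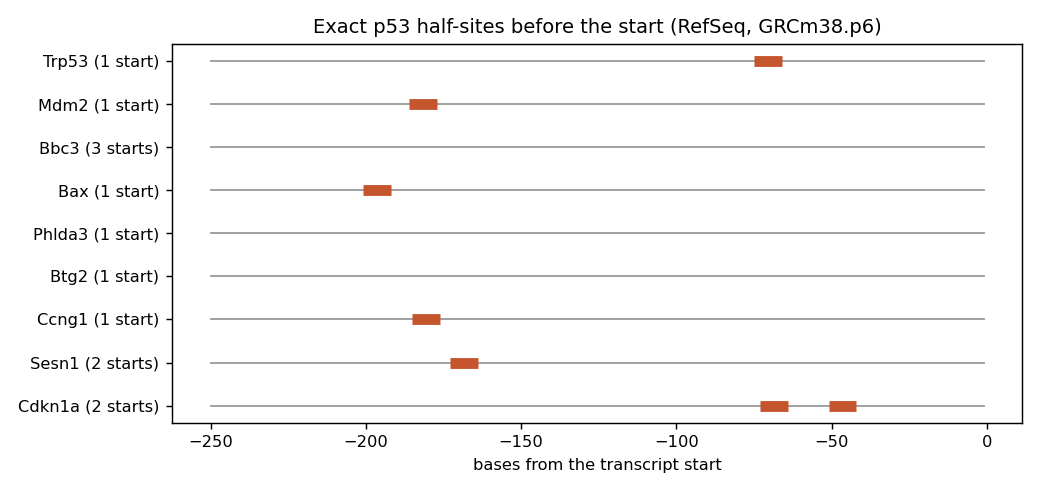
Position of exact p53 half-sites (red) in the 250 bases before the transcript start, in bases from the start, for the 8 genes with a RefSeq promoter and for Cdkn1a; where a gene has several starts, the windows are laid over each other. Half-sites stand in the windows of Trp53, Mdm2, Bax, Ccng1 and Sesn1 and, in a pair, in that of Cdkn1a.

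All 10 genes were called, 8 higher and 2 lower. Across the array 57.1% of tested probes were called, with 29% of tested probes higher and 28.1% lower in knockdown, so a call as such does not set the 10 genes apart. The median change of the 10 genes was 0.59, against 0.05 over all tested probes. Because the 10 genes were chosen with earlier results of these data known, this contrast is descriptive only. Control and knockdown arrays did not overlap for any of the 10 genes, and 54.2% of tested probes were separated in this way, 27.5% with knockdown above control and 26.7% below. Trp53 and Bax were the genes with lower signal in knockdown, and the pro-apoptotic gene Pmaip1 had the largest change of the 10.

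**Figure D2:**
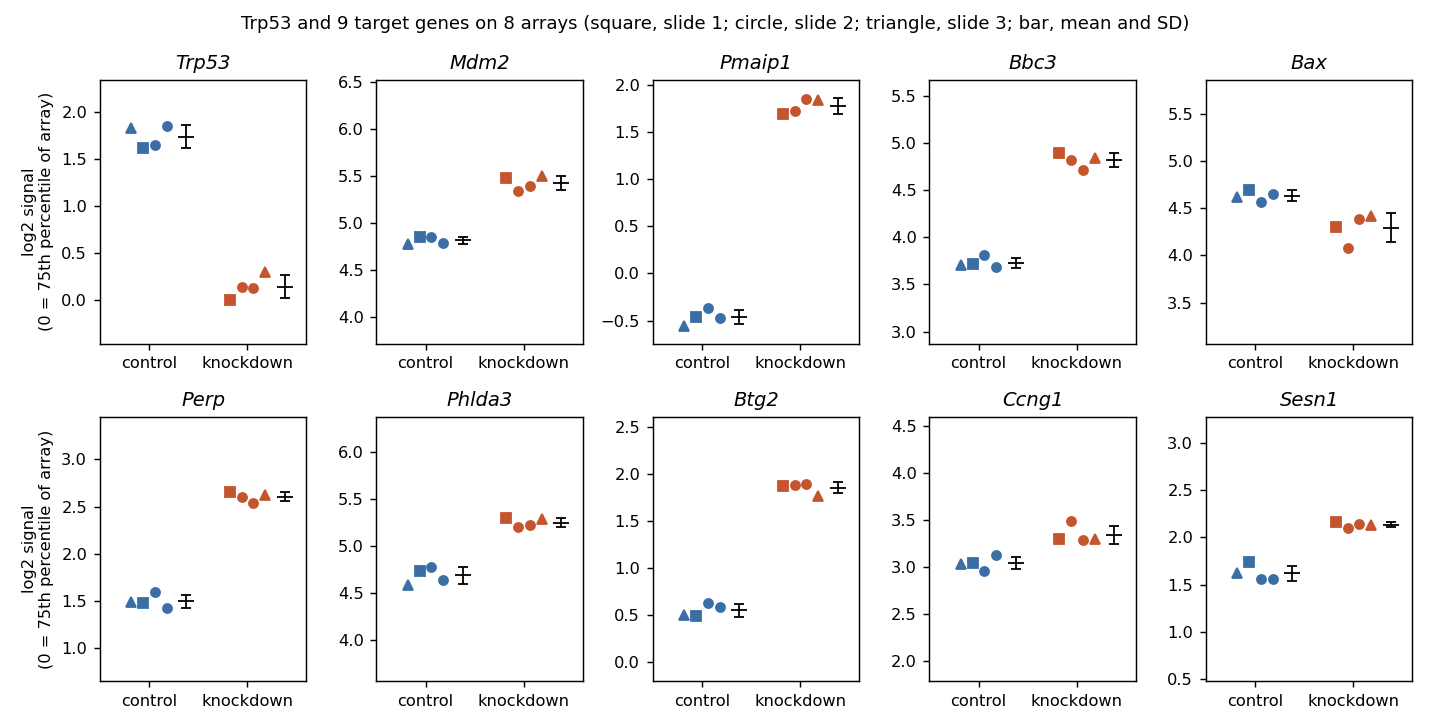
Log2 signal (y axis, 0 is the 75th percentile of the array) of Trp53 and its 9 targets on the 4 control (blue) and 4 knockdown (orange) arrays; symbols give the slide, black bars the mean and SD, and every panel spans the same range of log2 units. Control and knockdown arrays do not overlap in any panel, with the widest gap for Pmaip1 and the narrowest for Bax and Ccng1.

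The transcript of p53 itself fell. The log2 signal of Trp53 was 1.83, 1.62, 1.65 and 1.85 in control arrays 1 to 4 and 0.006, 0.15, 0.13 and 0.30 in knockdown arrays 1 to 4. Every control array lay more than 1 log2 unit above every knockdown array. The mean went from 1.74 ± 0.12 (SD, n = 4) to 0.14 ± 0.12 (SD, n = 4), a change of -1.59 (SE 0.09), 3.02-fold lower (limma adjusted p = 2.47e-06). Of all tested probes 2.8% had a lower change. The probe, A_55_P1968068, lies at chr11:69404204-69404263 (mm9) and was spotted in 2 places on each array. Its sequence, shown because the only measurement of Trp53 rests on it, is
A_55_P1968068: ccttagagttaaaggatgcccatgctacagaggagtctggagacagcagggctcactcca
On control array 1 its 2 spots read 2346.9 and 2359.1 intensity units, and on knockdown array 1 they read 494 and 476. The spots of an array differed by at most 7.4% of their mean, which measures the spot only and not the spread between samples.

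Mdm2, the ubiquitin ligase that holds p53 in check, went the other way. Its log2 signal (probe at chr10:117126010-117126069, mm9) was 4.78, 4.85, 4.85 and 4.79 in control arrays and 5.48, 5.34, 5.39 and 5.50 in knockdown arrays. The rise from 4.82 ± 0.04 (SD, n = 4) to 5.43 ± 0.07 (SD, n = 4) was a change of 0.61 (SE 0.06), or 1.53-fold, with a limma adjusted p of 6.73e-05. Ccng1 encodes cyclin G1, which takes part in the same feedback by acting on Mdm2 with a phosphatase. Its signal (chr11:40562427-40562486, mm9) was 3.03, 3.05, 2.96 and 3.12 in control and 3.30, 3.48, 3.29 and 3.29 in knockdown arrays. Its knockdown arrays 1, 3 and 4 sat close together and array 2 lay above them, and the lowest knockdown array cleared the highest control array by a narrow margin. Ccng1 rose by 0.30 (SE 0.07), 1.23-fold, the smallest change of the 10 in size, with a limma adjusted p of 0.00737. With the median of each array as its reference in place of the 75th percentile the change was 0.13 and the call ended (limma adjusted p = 0.385).

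The BH3-only genes, whose small proteins bind and disarm the survival proteins of the Bcl2 family, rose. Pmaip1, which encodes Noxa (chr18:66625088-66625147, mm9), had a log2 signal of -0.55, -0.47, -0.37 and -0.48 in control arrays and of 1.70, 1.72, 1.86 and 1.84 in knockdown arrays. In intensity units that was a mean of 455.9 against 1942. The change was 2.24 (SE 0.07), 4.74-fold higher with a limma adjusted p of 1.91e-07, and 98.3% of tested probes had a lower change. Bbc3, which encodes Puma (chr7:16903403-16903462, mm9), went from 3.70, 3.72, 3.81 and 3.68 in control to 4.90, 4.82, 4.72 and 4.84 in knockdown arrays. All knockdown arrays of Bbc3 lay about 1 log2 unit above the control arrays. Its change was 1.09 (SE 0.07), 2.13-fold higher, with a limma adjusted p of 3.55e-06.

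Bax, the effector that opens the outer mitochondrial membrane once the survival proteins are disarmed, did not follow them. Its signal (chr7:52717122-52717181, mm9) was 4.62, 4.70, 4.57 and 4.65 in control arrays and 4.30, 4.07, 4.38 and 4.42 in knockdown arrays. The knockdown arrays were all lower but spread more widely than the controls, with array 2 the lowest. The change of Bax was -0.34 (SE 0.09), 1.27-fold lower (limma adjusted p = 0.0102). The call was not made under quantile normalization (-0.24, limma adjusted p = 0.0806). On the same array, where scaling cancels, the difference of Bbc3 minus Bax moved from -0.91 ± 0.10 (SD, n = 4) to 0.52 ± 0.18 (SD, n = 4), and that of Pmaip1 minus Bax by 2.59. Neither difference overlapped between the groups. That had to be so, because every knockdown array was lower than every control array for Bax and higher for both BH3-only genes.

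Perp and Phlda3 act in cell death at the membrane. Perp encodes a 4-pass membrane protein of cell junctions that p53 uses in apoptosis (chr10:18576697-18576756, mm9). Its signal was 1.48, 1.48, 1.59 and 1.42 in control arrays and 2.66, 2.60, 2.54 and 2.63 in knockdown arrays. It rose by 1.11 (SE 0.06), or 2.16-fold (limma adjusted p = 2.72e-06). The knockdown arrays of Perp were tightly grouped and well clear of the controls. Phlda3 encodes a small lipid-binding protein that keeps the survival kinase Akt from the membrane (chr1:137665642-137665701, mm9). Its signal was 4.59, 4.74, 4.78 and 4.65 in control and 5.29, 5.20, 5.22 and 5.29 in knockdown arrays. The control arrays of Phlda3 spread more than its knockdown arrays, and the groups stayed apart. Its rise was 0.56 (SE 0.07), or 1.48-fold (limma adjusted p = 0.000161).

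Btg2 and Sesn1 link p53 to growth arrest and metabolism. Btg2, an antiproliferative gene also known as a marker of neural progenitors about to make neurons (chr1:135972094-135972153, mm9), had a signal of 0.50, 0.49, 0.63 and 0.59 in control and of 1.87, 1.88, 1.89 and 1.76 in knockdown arrays. Its change was 1.30 (SE 0.07), 2.46-fold higher with a limma adjusted p of 1.45e-06, the second largest rise of the 10 genes. Sesn1 encodes sestrin 1, which restrains the growth kinase mTORC1 (chr10:41628012-41628071, mm9). It went from 1.62, 1.74, 1.56 and 1.56 in control to 2.17, 2.11, 2.15 and 2.13 in knockdown arrays (SD 0.025 over the latter). The change of Sesn1 was 0.52 (SE 0.07), 1.43-fold higher with a limma adjusted p of 0.000196.

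By size of change, Pmaip1, Btg2, Perp and Bbc3 rose more than 2-fold, while Mdm2, Phlda3, Sesn1 and Ccng1 rose by 1.23-fold to 1.53-fold. Within an array, every target moved up relative to Trp53, by 1.25 for Bax, 2.20 for Mdm2 and up to 3.84 for Pmaip1. The groups did not overlap in any of these differences. Of all tested probes only 2.8% had a lower change than Trp53, so nearly all probes moved up relative to it. The direction therefore follows from the fall of Trp53 and does not set the targets apart. These within-array differences do not depend on the scaling between arrays and were chosen after the values were seen.

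The 8 arrays came from 3 slides, each with control and knockdown arrays, and each slide was scanned together. Within slides 1, 2 and 3 Trp53 changed by -1.61, -1.61 and -1.53, Pmaip1 by 2.16, 2.21 and 2.39, and Mdm2 by 0.63, 0.55 and 0.72. Bax changed by -0.40, -0.38 and -0.20 and Ccng1 by 0.26, 0.34 and 0.26. All 10 genes kept their direction within every slide, which had to be so because their control and knockdown arrays do not overlap. On slide 2 alone, with 2 arrays a group, Bax (limma adjusted p = 0.109) and Ccng1 (limma adjusted p = 0.111) were not called, and slides 1 and 3 hold 1 array of each group and give no test.

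**Figure D3:**
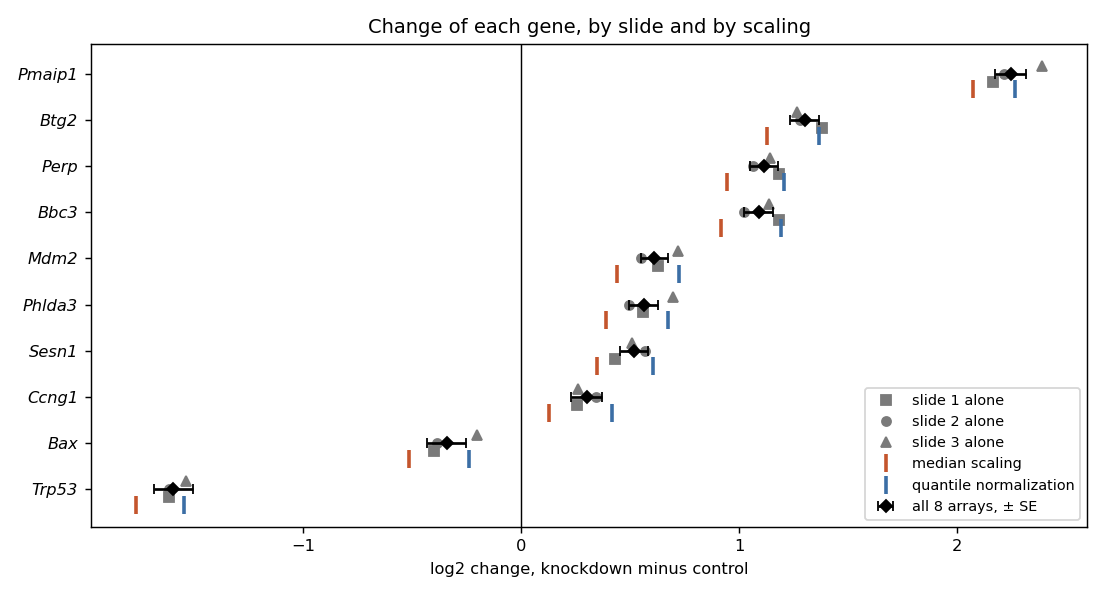
Log2 change (x axis, knockdown minus control) of each gene over all 8 arrays (black, ± SE), within each slide (grey) and, over all arrays, with median scaling (orange) or quantile normalization (blue). Trp53 lies between -1.76 and -1.53 and Pmaip1 between 2.07 and 2.39 in every version, while Ccng1 at 0.13 with median scaling and Bax at -0.20 within slide 3 come closest to 0.

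Of a list of 42 further targets 39 were tested, with 22 called higher, 6 lower and 11 not called, and a median change of 0.34. The list was chosen with earlier results of these data known, so its contrast with all genes is descriptive only. Over all 21739 genes tested by their brightest probe, 57.6% were called, 29% higher and 28.5% lower, with a median change of 0.04. With median scaling, which lowers the median change of all probes from 0.05 to -0.12, 14 targets were called higher and 8 lower. All 14 were also among the 22.

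The targets with the smallest p among those that rose were Gdf15, Cdkn1a, Polh, Fas and Cd82. Cdkn1a rose by 1.43 (SE 0.09), 2.69-fold, with all 3 of its probes called higher (limma adjusted p = 4.99e-06 for the brightest). Fas, the death receptor, rose 2.66-fold, the stress cytokine Gdf15 2.98-fold, the lesion-bypass polymerase Polh 3.43-fold and the tetraspanin Cd82 2.01-fold, with 2 of 3 Cd82 probes called. Fas, Gdf15 and Polh were dim, with control means of -3.47, -2.77 and -3.11, and their size depended on the background treatment. With normexp background correction the change was 0.79 for Fas, 1.04 for Gdf15 and 1.10 for Polh, and with the authors' values 0.65, 0.92 and 0.97, against 1.41, 1.57 and 1.78 here. The targets that fell were led by Ppm1d, the phosphatase that switches the p53 response off, 2.17-fold lower (limma adjusted p = 5.03e-06). Sulf2, an extracellular sulfatase, was 2.08-fold lower and the kinase Plk3 1.73-fold lower. Sesn2, the stress-induced relative of Sesn1, was lower by a factor of 1.36, opposite to Sesn1, and was not called on slide 2 alone (limma adjusted p = 0.0557). The RNA-binding gene Zmat3 was 1.38-fold lower. Groups did not overlap for any of these 10 genes, which were picked by their small p, and 54.2% of all tested probes were separated in this way.

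Of 28 genes that act on p53 or beside it, all tested, 13 were called lower, 7 higher and 8 not called, with a median change of -0.36. Over all genes 28.5% were called lower and 29% higher. This list too was chosen with earlier results of these data known. The kinase Hipk2, which phosphorylates p53, fell 2.78-fold and the deacetylase Sirt1, which acts on p53, fell 2.44-fold (limma adjusted p = 1.60e-06 and 9.39e-07). Trp53bp1 was 1.94-fold lower, Wrap53, whose gene lies head to head with Trp53 on the other strand, 1.87-fold lower, and the p53 deubiquitinase Usp10 1.77-fold lower. Among those that rose, Mdm4, the partner of Mdm2, was 1.48-fold higher with 1 of its 2 probes called, and Ppp1r13b and Ppp1r13l, which encode a cofactor and an inhibitor of p53 of the ASPP family, were 1.91-fold and 1.51-fold higher. The ribosomal protein gene Rpl5, whose product can hold Mdm2 back, rose by 0.39 and the Yy1 gene by 0.30, and both calls ended with median scaling (limma adjusted p = 0.183 and 0.499) and on slide 2 alone (limma adjusted p = 0.0701 and 0.108). The Yy1 call also ended with no filter on dim probes (limma adjusted p = 0.053) and with knockdown pairs averaged (limma adjusted p = 0.0592). The relatives of p53 did not pass the test. The change of Trp63 was 0.17 (limma adjusted p = 0.247, 1 of 4 probes tested), or -0.004 with median scaling, and that of Trp73 was 0.19 (limma adjusted p = 0.538, 1 of 3 probes tested). Trp63 was called higher with quantile normalization (0.28, limma adjusted p = 0.0467) and with the authors' values (0.31, limma adjusted p = 0.0241).

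**Figure D4:**
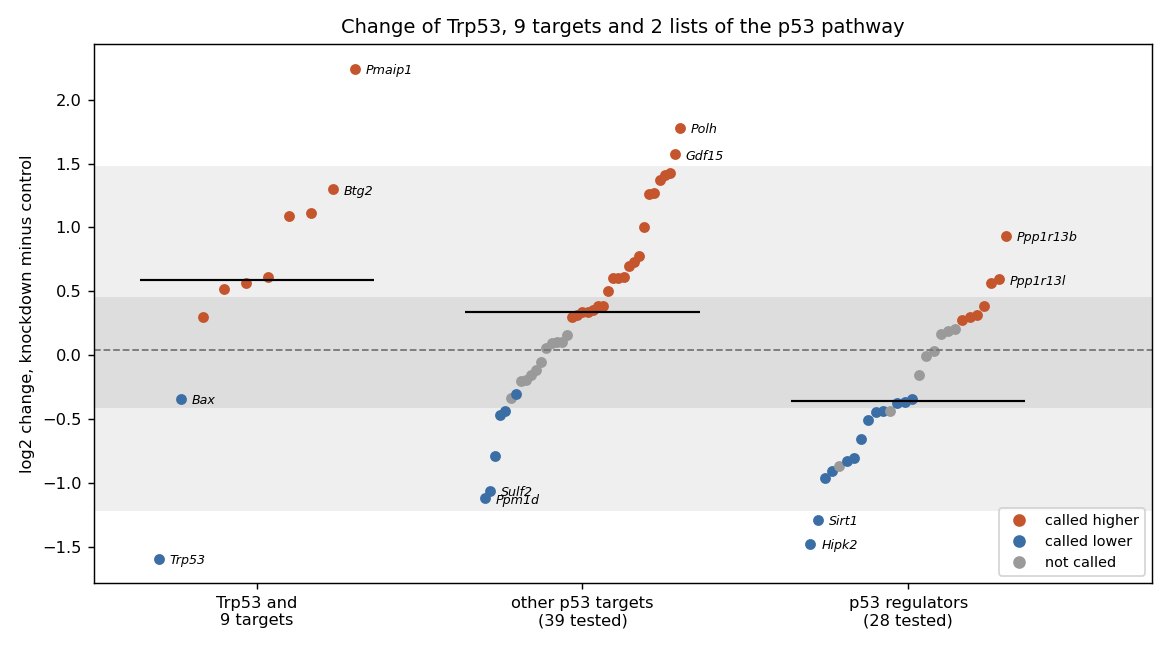
Log2 change (y axis, knockdown minus control) of Trp53 and its 9 targets, of 39 other p53 targets and of 28 regulators, each gene by its brightest probe and ordered by change; black lines are medians, the dashed line and grey bands the median and the ranges from the 25th to the 75th and from the 5th to the 95th percentile of all tested genes. Outside the wider range (from -1.21 to 1.47) lie Pmaip1 and Trp53, the targets Polh and Gdf15 and the regulators Hipk2 and Sirt1, and the medians are 0.59, 0.34 and -0.36.

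The genes whose signal over the 8 arrays was most like that of Trp53, by Pearson r among 14635 genes with a current symbol, were Zfyve9 (r = 0.9968), Slc35f1, Lmo2, Hs6st2 and St8sia3 (r = 0.9965). Zfyve9 changed by -1.66 and Slc35f1 by -1.60, close to Trp53, and Lmo2 by -0.84, or by -0.47 with normexp background correction. Of the 14635 genes 14.4% had an r above 0.95, since the 8 arrays share the split into 2 groups. The r of the deviations from the group means, over the same 8 arrays, ran from 0.76 for St8sia3 to 0.9 for Zfyve9. Picking genes by their r over these arrays favours a high r of deviations. These values therefore do not show a link with Trp53 beyond the split.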

How the data were processed

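RNA of 8 samples was measured on 1-colour Agilent arrays with probe positions on mm9. Per the file headers, the deposited intensity was extracted with Feature Extraction 10.7.3.1 and detrended within each array, with no scaling between arrays. The authors' deposited log2 table, whose columns share 1 distribution, was an alternative only, and how it was made is not given in the sources used here. Here control spots and outlier spots were left out, spots of a probe averaged, and log2 values set against the array's 75th percentile. Of 55681 probes, 29090 were well above background throughout 1 group or both and entered limma 3.58.1 (R 4.3.3; lmFit, eBayes, two-sided). A gene of a list was represented by its brightest tested probe, named through RefSeq. The fit was tested on simulated data with independent noise. It recovered 22.1% of changes of 0.5 log2 units, 77.3% of those of 1 and 89.4% of those of 2. Far fewer probes changed there than were called in these data, so these shares do not carry over to them.

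The 10 genes and the lists were chosen with earlier results of these data known. Genes named are the 10, Dnajc2, Mdm4, Cdkn1a, Trp63, Trp73, up to 5 called genes per list and direction with the smallest p, the 5 most like Trp53, and markers dim in 1 group, the last a narrowing made after the values were seen. The number of arrays limits the precision. Whether probes lie in coding or untranslated exons was not analysed here. Alternatives covered scaling, background, filters, slide, replicate number, knockdown arrays sharing a number in their deposited names and leaving out each array.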

Additional observations from a re-analysis of the deposited data

Results flagged for a closer look

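In 6 of 80 groups of 4 arrays, over the 40 genes named, 1 array stood apart from the other 3 by Dixon's ratio, and chance gives about 1 in 20. For Ccng1 knockdown array 2 was the highest (ratio 0.918), and without it the gene rose by 0.25 (limma adjusted p = 0.0188). The other cases were Plk3 (0.884), Zmat3 (0.838) and St8sia3 (0.876) in knockdown, and Mdm4 (0.837) and Usp10 (0.839) in control. Leaving out any 1 array ended none of these 6 calls in limma.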

How the results depend on the processing

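Across 22 alternatives per gene, Trp53, Mdm2, Pmaip1, Bbc3, Perp, Phlda3, Btg2 and Sesn1 kept their direction, and their call wherever a test could be made. Trp53 ranged from -1.76 to -1.44 and Pmaip1 from 2.05 to 2.39. Bax was not called under quantile normalization (-0.24) or on slide 2 alone (-0.38), nor Ccng1 with median scaling (0.13) or on slide 2 alone (0.34). Genes of the 10 called lower then numbered 1 under quantile normalization and 1 on slide 2. Single-slide values more than 1 SD away were 0.72 for Mdm2, 2.16 and 2.39 for Pmaip1, 1.18 for Bbc3, -0.20 for Bax, 1.19 for Perp, 0.70 for Phlda3, 1.38 for Btg2 and 0.43 for Sesn1. With median scaling all tested probes called higher numbered 5608, in place of 8427, which put the share of calls that were higher at 37.6% against 50.7%, with 14 other targets and 3 regulators higher. Higher regulators numbered 4 with no filter on dim probes and 4 on slide 2, where 18 other targets were called, 14 of them higher. Trp63 changed sign with median scaling (-0.004) and on slide 2 (-0.028), and Trp73 without knockdown replicate 4 (-0.004). The cause was not tested.

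With the replicate number of the titles as a block all 10 genes were called, and 15022 probes. Same-numbered arrays deviated with correlations of 0.12, -0.21, 0.17 and -0.31. Only the arrays numbered 3 share a slide, so these correlations cannot tell whether the numbers pair the samples. The 4 knockdown arrays carry 2 numbers in their deposited names, 1 array of each pair with the added letters TR, whose meaning is not given. Averaging those pairs left all 10 genes called (Bax limma adjusted p = 0.0278, Ccng1 0.0310) and ended the call of Yy1 (limma adjusted p = 0.0592). The closest 2 knockdown arrays, by the SD of their log2 difference over 25381 probes, were 2 and 3 (0.26), which share a slide and not a number.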
